A study of Caenorhabditis elegans with 2 samples.

Results

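The genes described here encode the factors that start and extend protein synthesis and the enzymes that charge transfer RNAs. They are the protein-coding genes of Caenorhabditis elegans whose symbol begins with eif- or eef-, or consists of 1 letter followed by ars, a hyphen and a number. The rule found 63 of the 19973 protein-coding genes on the 6 nuclear chromosomes: 25 eif- genes, 6 eef- genes and 32 aminoacyl-tRNA synthetase genes. The rule reads the symbols and uses no binding value.

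Binding was measured by chromatin immunoprecipitation and sequencing (ChIP-seq) in whole young adults of strain OP658, genotype unc-119(tm4063) III; wgIs658. The wgIs658 transgene expresses the F10E7.11 protein fused at its C-terminus to GFP and FLAG, and an anti-GFP antibody was used. The animals were of both sexes, pooled, and were collected 63 hours after synchronisation as starved L1 larvae. All samples belong to 1 group with 2 biological replicates and no second condition. The tagged protein comes from a transgene in whole animals, so tissues are not resolved, and the sources used here do not say what drives its expression.

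Protein synthesis starts when eIF2, bound to GTP, carries the initiator tRNA to the small ribosomal subunit, on which eIF3 acts as a scaffold. The exchange factor eIF2B then recharges eIF2 with GTP. During elongation eEF1A delivers charged tRNAs, its GTP is renewed by the eEF1B and eEF1G exchange complex, and eEF2 moves the ribosome along the message. Each synthetase joins an amino acid to its matching tRNAs. Worm genes often lie close together on the same strand in operons, where a downstream gene can share the promoter of the gene before it.

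A gene was counted as having a region when a summit lay between 1000 bp upstream and 200 bp downstream of any of its annotated 5′ ends. The authors' lists, in ce11 coordinates, hold 18286 candidate regions from the pooled replicates, 18116 from replicate 1 and 25275 from replicate 2. A further list holds 575 peaks past the authors' irreproducible discovery rate (IDR) threshold, and these are the pooled regions of highest signal value. The signal value is the authors' own, and its scale differs between lists, so it ranks regions only within a list. A percentile below is the share of a list's regions with a signal value at or below the one given. Candidate lists include background, and a q-value under 0.05 was given to 996 pooled regions. Read depth is unknown from these files, and without a second condition no test between groups was possible.

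The sequences at the summits of 5 members are shown to let the sites be read beside their values. The first 2 are the IDR peaks for which sequence is shown, and the others are the highest synthetase below the IDR list and 2 elongation factor genes. Each sequence is the 101 bases centred on the pooled summit, trimmed where it reached an annotated UTR, and written 5′ to 3′ on the gene's strand from WBcel235, which is ce11. Capitals mark CTGCGC at ears-2 and, at eef-1G, the reverse complement of ACGCAG.
eif-2Bgamma, chrII:6968310-6968410 (- strand): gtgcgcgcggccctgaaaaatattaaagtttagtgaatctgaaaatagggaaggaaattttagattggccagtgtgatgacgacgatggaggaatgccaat
ears-2, chrIV:390469-390532 (- strand): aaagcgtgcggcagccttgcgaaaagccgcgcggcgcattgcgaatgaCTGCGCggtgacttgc
fars-3, chrII:8464611-8464711 (+ strand): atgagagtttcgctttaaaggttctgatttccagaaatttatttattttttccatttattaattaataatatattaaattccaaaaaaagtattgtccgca
eef-1A.2, chrX:7823277-7823377 (+ strand): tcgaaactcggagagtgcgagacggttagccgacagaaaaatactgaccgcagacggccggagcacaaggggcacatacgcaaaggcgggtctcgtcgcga
eef-1G, chrV:10965629-10965718 (+ strand): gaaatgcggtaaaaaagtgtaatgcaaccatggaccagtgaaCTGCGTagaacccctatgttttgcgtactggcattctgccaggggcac
The G+C content of the printed bases was 22.8% at fars-3, 42.6% at eif-2Bgamma, 48.9% at eef-1G, 59.4% at eef-1A.2 and 64.1% at ears-2. These include both ends of the range: over the untrimmed 101 bp at the 10 strongest member summits it ran from 22.8% at fars-3 to 62.4% at ears-2, with 46.5% at eif-2gamma and 54.5% at eif-3.C.

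In the window used here, most members had a candidate region and a few had an IDR peak. Of the 63 genes, 35 (55.6%) had a pooled candidate region, beside 25.8% of all protein-coding genes. This majority depended on the definition. With limits of 500 bp before and 100 bp after each start, 25 members had one, beside 16.9% of all genes. With the gene record's own 5′ end the count was 30 (22.7% of all genes). With the nearest protein-coding 5′ end alone it was 29 (23.3%). Counting any overlap of a region with the window gave 38 (31.5%). Pooled regions with a q-value under 0.05 lay at 9 members (14.3%), beside 2.67% of all genes. IDR peaks lay at 4 members (6.35%), beside 1.50% of all genes, and those members were eif-2Bgamma, ears-2, eif-2gamma and eif-3.C. Their windows held 5 IDR peaks, because eif-2Bgamma had a second one. Genes with several annotated starts have more window. The median window was 1201 bp for members and for all genes, and the mean was 1531 bp for members and 1453 bp for all genes. Among genes with a single start, 18 of 35 members (51.4%) had a pooled region, beside 20.9% of 14723 genes.

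**Figure D1:**
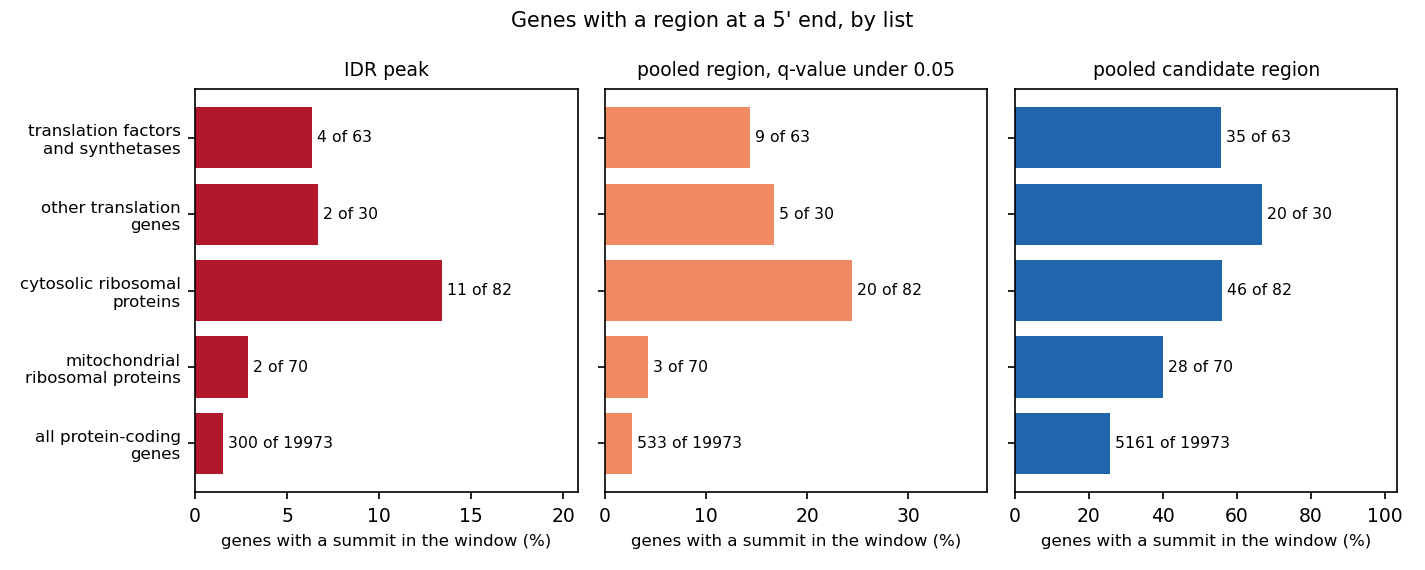
Share of genes with a summit in the window (horizontal axes, percent) for IDR peaks, pooled regions with a q-value under 0.05 and all pooled regions, with the number of genes at each bar. The 63 translation factor and synthetase genes lie above all protein-coding genes in each panel, and cytosolic ribosomal protein genes have the longest bars in the first 2 panels.

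Where a region was present, its signal value spanned a wide range. The strongest pooled region of each member had a signal value from 57.3 to 236.9, with a median of 90.7, beside a median of 76.9 over the 5161 genes with a region. The lowest IDR peak had a signal value of 155.0. The eef- genes had the highest median, 125.8 over 4 genes, followed by the eif- genes with 85.7 over 13 and the synthetases with 72.9 over 18. Most of the 35 members with a region were therefore below the IDR list, and 13 of the 35 were below the pooled list's median of 71.9.

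**Figure D2:**
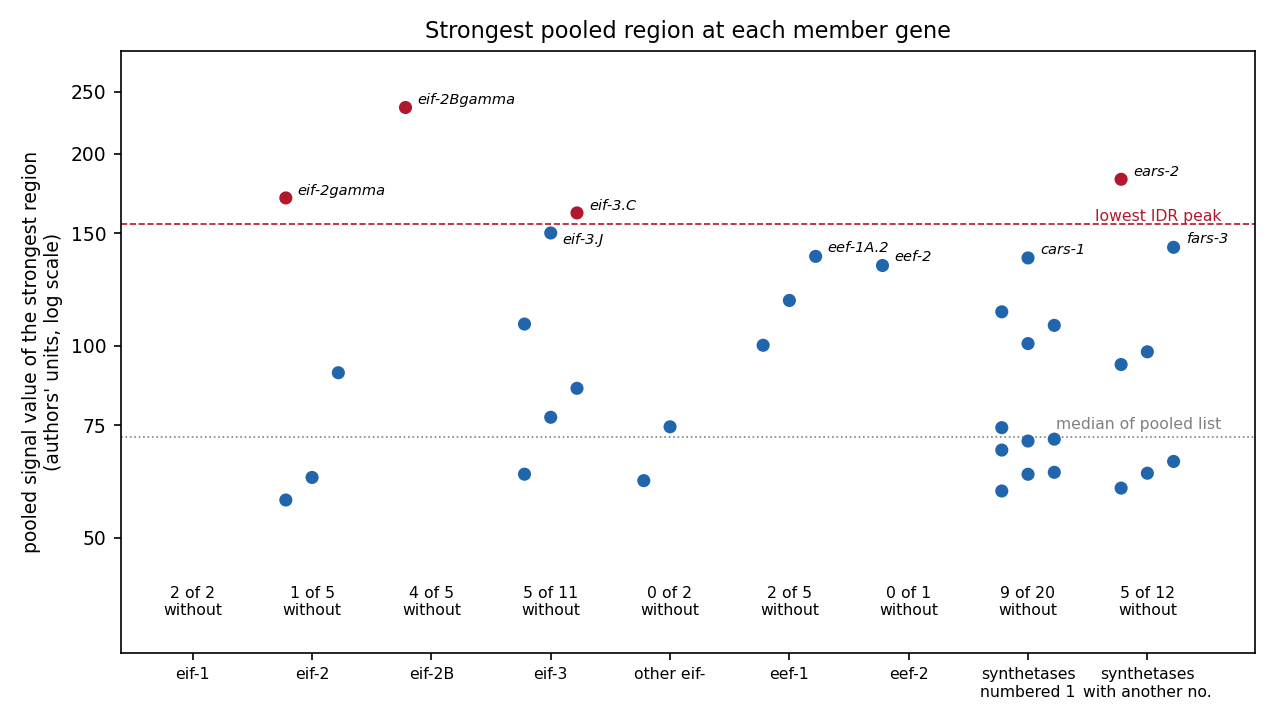
Signal value of the strongest pooled region at each of the 35 members with one (vertical axis, authors' units, log scale), by gene group, with the number of genes without a region under each group. Red points are the 4 IDR peaks, the dashed line is the lowest IDR peak (155.0) and the dotted line is the median of the pooled list (71.9). The 4 elongation factor genes with a region lie between 100.1 and 138.0.

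Among the initiation factors, the highest region was at eif-2Bgamma, which encodes a subunit of the eIF2B exchange factor. Its pooled signal value was 236.9, rank 120 of the list, with a q-value of 0.00183. In replicate 1 the signal value was 187.9 (rank 87), and in replicate 2 it was 49.3 (rank 640). Both replicates placed the summit near the same base, 712 bp and 707 bp upstream of the 5′ end. The region, chrII:6968142-6968577, lay in an intron of C15F1.5, the next gene upstream on the same strand. The snRNA genes sup-39 and mir-1831, so classed in the annotation, and the noncoding gene C15F1.14 lay within 250 bp of the summit. The second IDR peak of this window, 911 bp upstream with a pooled signal value of 165.7 (rank 458), had its summit in an exon of C15F1.14. Their part in the result was not tested. The genes for the other eIF2B subunits, alpha, beta, delta and epsilon, had no region in any of the lists.

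The genes for the eIF2 subunits differed widely from each other. For eif-2gamma, the subunit that binds GTP, the pooled signal value was 170.5 (rank 408, q-value 0.00613), with 129.9 in replicate 1 (rank 357) and 49.3 in replicate 2 (rank 645). Its region, chrI:2312264-2312699, had a summit 789 bp upstream of eif-2gamma but 14 bp upstream of tbca-1, the preceding gene on the same strand. The peak is thus nearer to tbca-1, and these lists do not assign it to either gene. For eif-2alpha, the subunit phosphorylated under stress, the pooled signal value was 90.7 (rank 4112), with 77.5 in replicate 1 (rank 2284). The pooled and replicate 1 summits lay 191 bp upstream, in the 3′ UTR of phb-1. In replicate 2 no summit lay within 100 bp of that position, and the strongest in the window, 481 bp upstream, had 22.2 (rank 15101). For eif-2beta the pooled signal value was 62.1 (rank 14111), and replicate 2 had no region. Grouped with these by symbol, eif-2D had 57.3, the lowest value of all 35 members, and its summit was nearer to ndub-5.

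Of 11 eif-3 genes, 6 (54.5%) had a pooled region, beside 25.8% of all genes. At eif-3.C, which encodes a core eIF3 subunit, the pooled signal value was 161.5 (rank 497, q-value 0.0131). It was 108.4 in replicate 1 (rank 680) and 58.1 in replicate 2 (rank 315). This was the only member among the 575 strongest regions of replicate 2. The pooled summit lay 242 bp upstream, in intergenic sequence, in the region chrI:9979686-9980121. At eif-3.J the pooled signal value was 150.2 (rank 633), just under the lowest IDR peak, with 112.5 in replicate 1 and 39.6 in replicate 2. At eif-3.E it was 108.1 (rank 2080), with a summit 3 bp upstream of the start. The others were eif-3.I (85.7), eif-3.F (77.2) and eif-3.G (62.9) on the pooled scale. Both of the remaining eif- genes had weak regions. The value was 74.6 at eif-4A3, for the helicase of the exon junction complex. It was 61.4 at eif-6, for a factor that keeps the large ribosomal subunit from joining the small one. The eif-1 and eif-1.A genes, for factors in start codon selection, had none.

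Of the 6 elongation factor genes, 0 had an IDR peak, beside 1.50% of all genes, and 4 (66.7%) had a pooled region, beside 25.8%. The signal values of these 4 ran from 100.1 to 138.0, and the summits of 3 lay within 100 bp of the start. At eef-1A.2, a gene for eEF1A, the pooled signal value was 138.0 (rank 872, q-value 0.0338), with 94.7 in replicate 1 (rank 1092) and 44.3 in replicate 2 (rank 1054). Its summit lay 327 bp upstream, and the noncoding gene R03G5.8 lay within 250 bp of it. At eef-2 the pooled signal value was 133.8 (rank 977, q-value 0.0486), with 92.4 in replicate 1 (rank 1212) and 29.9 in replicate 2 (rank 5706). At eef-1G it was 117.7 (rank 1506, q-value 0.122), with 89.9 in replicate 1 (rank 1348) and 29.7 in replicate 2 (rank 5856). These summits lay 26 bp and 40 bp upstream, each between the gene and a neighbour on the other strand, clsp-1 for eef-2 and ctf-4 for eef-1G. At eef-1B.1 the pooled signal value was 100.1 (rank 2788, q-value 0.316). Its summit lay 7 bp upstream, in an exon of the noncoding gene F54H12.9, and also in the window of aco-2 on the other strand. The replicates ranked eef-1B.1 differently, with 54.7 in replicate 1 (rank 8161) and 43.1 in replicate 2 (rank 1194). The second eEF1A gene, eef-1A.1, had a region in each replicate but none in the pooled list, and eef-1B.2 had none.

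Among the 32 synthetase genes, 18 (56.2%) had a pooled region, beside 25.8% of all genes, and 1 (3.12%) had an IDR peak, beside 1.50%. That peak was at ears-2, a glutamyl-tRNA synthetase gene, in the region chrIV:390264-390699. The pooled signal value was 182.3 (rank 309, q-value 0.00486), with 147.5 in replicate 1 (rank 226) and 37.6 in replicate 2 (rank 2236). Replicate 1 thus ranked it far higher than replicate 2. The summit lay 14 bp upstream of ears-2 and 78 bp upstream of uncp-18 on the other strand. The next synthetases were fars-3, for phenylalanine, with a pooled signal value of 142.6 (rank 772, q-value 0.0266), and cars-1, for cysteine, with 137.3 (rank 894, q-value 0.0364). For fars-3 the replicate values were 115.2 (rank 553) and 33.5 (rank 3672), and for cars-1 they were 94.8 (rank 1090) and 40.9 (rank 1503). The cars-1 gene held a second region, with its summit 28 bp downstream of a start and a pooled signal value of 135.5. No other synthetase had a q-value under 0.05.

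Further down, the pooled signal values were 113.0 at hars-1 (histidine), 107.6 at rars-1 and 97.8 at rars-2 (arginine), 100.8 at qars-1 (glutamine) and 93.4 at fars-2 (phenylalanine). These completed the synthetases among the 20 strongest members. The 10 weakest synthetases with a region lay between 59.2 and 74.4. Synthetase genes numbered 1 had a pooled region in 11 of 20 cases (55.0%), and those with another number in 7 of 12 (58.3%), beside 25.8% of all genes.

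Of the 28 members without a pooled region, 8 had one in a replicate list. These were dars-2, eef-1A.1, eif-2A, eif-3.D, fars-1, iars-2, lars-1 and sars-2. For eif-3.D the replicate 2 region ranked 3871. The other 20 had no region in any list, and they are named for completeness: eif-1, eif-1.A, eif-2Balpha, eif-2Bbeta, eif-2Bdelta, eif-2Bepsilon, eif-3.B, eif-3.H, eif-3.K, eif-3.L, eef-1B.2, aars-2, dars-1, ears-1, iars-1, nars-1, pars-1, sars-1, yars-1 and yars-2. At these genes binding was not listed, which does not show its absence, since no list gives a depth. The counts of 8 and 20 have no share over all genes beside them, so they are not a trait of the members.

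The replicates differed in which members they listed and in how they ranked them. A region lay at 35 members (55.6%) in replicate 1, beside 26.0% of all genes, and at 38 (60.3%) in replicate 2, beside 32.0%. Both replicates had one at 30 members (47.6%), beside 17.1%. Summits of the replicates within 100 bp of each other were found at 19 members (30.2%), beside 11.4% of all genes. Among the 575 strongest regions of replicate 1 there were 4 members (6.35%, beside 1.57% of all genes), and among those of replicate 2 there was 1 (1.59%, beside 1.46%). Those of replicate 1 were eif-2Bgamma, ears-2, eif-2gamma and fars-3, and that of replicate 2 was eif-3.C. The members' share among the strongest regions of replicate 2 was thus near that of all genes.

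Spearman's rho between replicate 1 and replicate 2 was 0.62 for the 30 members that both listed, beside 0.46 over 3417 genes. These are descriptions across genes that share the same pair of libraries. They use each gene's strongest region in each replicate, which need not be the same site. At mars-1, for example, it lay 4 bp downstream of a start in replicate 1 and 931 bp upstream of a start in replicate 2. The percentile was higher in replicate 1 for 20 members and in replicate 2 for 9 of the 29 that also had a pooled region. No count over all genes stands beside this split, so it cannot be read as particular to the members. The largest gaps in percentile were 84.0 points at hars-1, 78.3 at eif-4A3 and 58.4 at rars-1. At hars-1 the summits were also apart, each measured from its nearest annotated start, which need not be the same one. The replicate 1 summit lay 127 bp downstream of a start (rank 1619), and that of replicate 2 lay 237 bp upstream of a start (rank 23491). At eif-4A3 replicate 2 ranked the region higher (rank 4583, against 17469 in replicate 1), and at rars-1 replicate 1 did (rank 1731, against 17181). Of the 35 pooled summits, 30 had a replicate 1 summit within 100 bp, 20 had a replicate 2 summit and 18 had both. These counts too have none over all genes beside them and cannot be read as particular to the members.

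**Figure D3:**
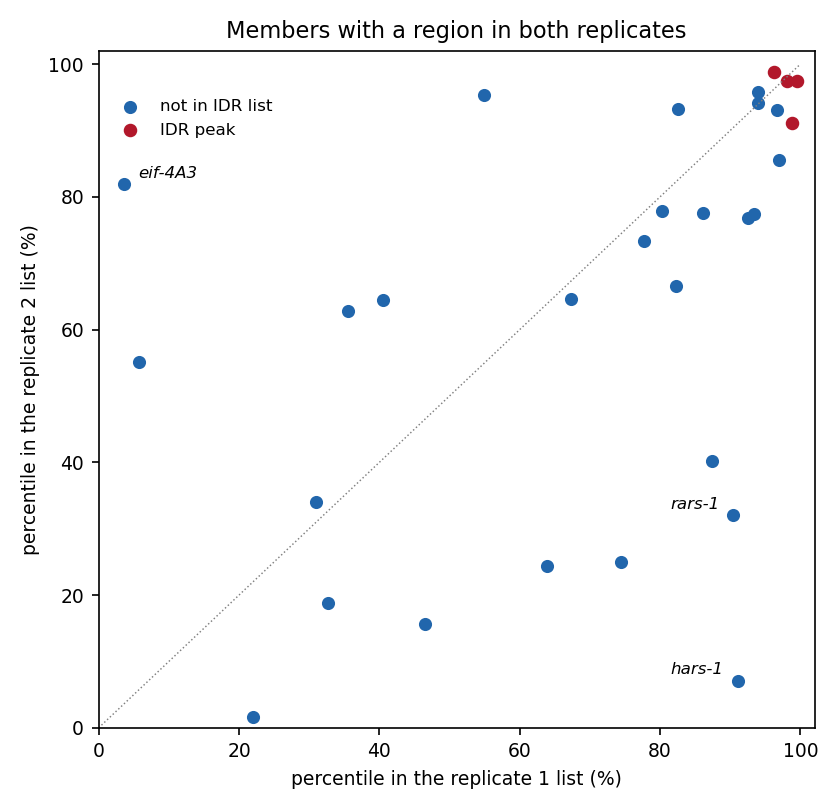
Percentile of each member's strongest region in the list of replicate 1 (horizontal axis) and replicate 2 (vertical axis), for the 30 members with a region in both. The strongest regions of a member in the replicates need not be the same site. The 4 IDR peaks (red) lie in the upper right corner, the dotted line marks equal percentiles, and hars-1, eif-4A3 and rars-1 have the largest gaps.

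Pooled summits of members gathered just upstream of the start. In the 200 bp before the 5′ end of the gene record, 19.0% of members had a pooled summit, beside 5.45% of all genes. In the bins from 1000 to 3000 bp on either side the members averaged 6.35%, with single bins from 1.59% to 15.9%, and all genes averaged 3.90%. The 200 bp before the start stood at 19.0% in replicate 1 as well, where the flanking bins averaged 6.27%, and at 15.9% in replicate 2, where they averaged 8.73%. In replicate 2 the bin next to the start was not the highest: a flanking bin reached 19.0%, and the bin that begins 600 bp downstream of the start reached 20.6%. The values that follow count instead from the annotated 5′ end nearest to the summit. The strongest pooled summit lay a median of 191 bp upstream for members and 251 bp upstream for all genes with a region. It was upstream of that end at 30 of 35 members (85.7%), beside 77.1%, and within 100 bp of it at 11 (31.4%), beside 24.3%. Not all of these lay before the gene: at cars-1, qars-1, tars-1 and eif-3.I the summit was upstream of an internal start, inside the gene itself. More than 500 bp upstream lay the summits of 10 members (28.6%), beside 29.9%.

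**Figure D4:**
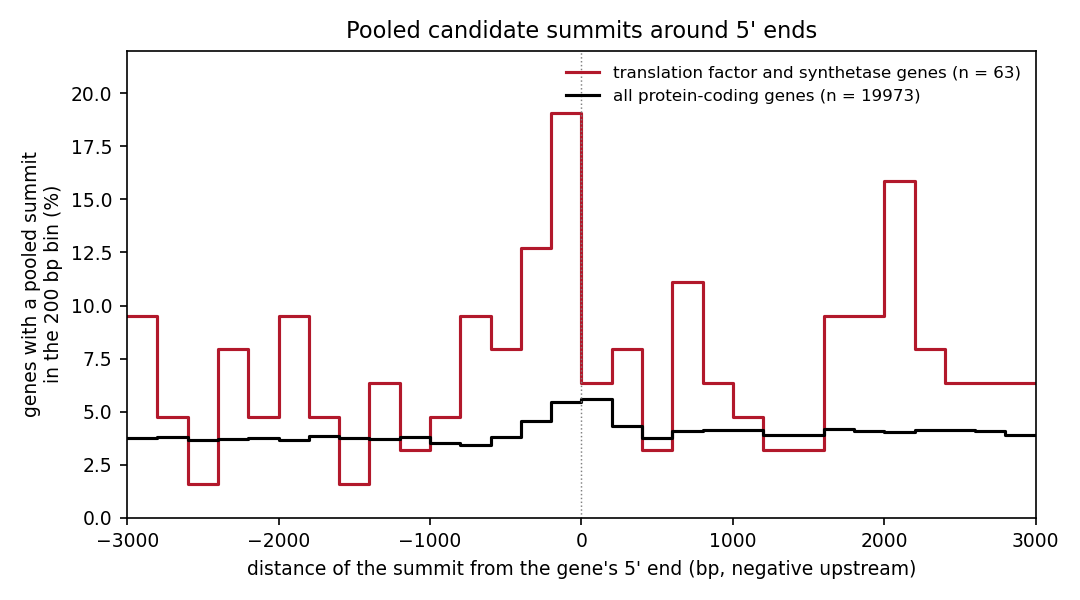
Share of genes with a pooled candidate summit (vertical axis, percent) in 200 bp bins by distance from the 5′ end of the gene record (horizontal axis, bp), for the 63 members (red) and all 19973 protein-coding genes (black). The members peak at 19.0% in the bin just upstream of the start, and another bin about 2000 bp downstream reaches 15.9%.

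By annotation, 16 of the 35 strongest summits were intergenic, 7 lay in a coding exon, 6 in an intron, 4 in a 3′ UTR, 1 in a 5′ UTR and 1 in a noncoding exon. A summit lay inside the member's own gene in 9 cases. In 12 cases the same summit also lay in the window of another protein-coding gene, and for 6 of them the other start was nearer. Those 6 were eif-2gamma (tbca-1), eif-4A3 (vps-20), tars-1 (kel-1), eif-6 (pbs-2), aars-1 (rga-1) and eif-2D (ndub-5), with the nearer gene in brackets. A tRNA, snoRNA or snRNA gene lay within 250 bp at 1 member, eif-2Bgamma. The placements in this paragraph were not counted over all genes with a region, so they cannot be read as particular to the members.

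Members often had a close upstream neighbour. In a split by neighbours that was chosen after the values were seen, 17 members (27.0%) had a gene ending on the same strand within 500 bp upstream, beside 20.5% of all genes. Of these 17, 12 (70.6%) had a pooled region, beside 35.2% of all genes so placed, and 3 (17.6%) had an IDR peak, beside 2.56%. A neighbour on the opposite strand within 500 bp was present at 20 members (31.7%), beside 13.2%. Of these 20, 10 had a pooled region, beside 29.4% of all genes so placed, and 1 (5%) had an IDR peak, beside 1.98%. The other 26 members had a pooled region in 13 cases, beside 22.2%, and an IDR peak in 0, beside 1.08%. In each class the members' share with a pooled region was above that of all genes. Their share with an IDR peak was not above it among those 26.

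Some strong peaks lay just outside the window. At its upstream edge the nearest regions inside were the second eif-2Bgamma peak (911 bp, pooled signal value 165.7), a region of fars-3 (905 bp, 65.3) and the eif-3.G region (878 bp, 62.9). Just outside, a region 1096 bp upstream of eif-3.G had a pooled signal value of 289.3, rank 58 of the list, above every region inside a member's window. It lay in an intron of lips-10, with no noncoding gene within 250 bp. A region 1048 bp upstream of iars-2 had 193.3 (rank 249) and lay in the 5′ UTR of C25A1.16, in whose own window it falls. The third was at lars-2 (1030 bp, 58.5). Downstream, the last regions inside were at hars-1 (127 bp, 113.0), eif-3.F (114 bp, 77.2) and nars-2 (98 bp, 56.7). The first outside were at eif-3.G (203 bp, 85.6), ears-1 (250 bp, 65.3) and pars-2 (255 bp, 56.5).

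Other genes of translation gave similar shares. A list of 39 symbols for cap-binding, poly(A)-binding, release and regulatory factors matched 30 annotated genes. Of these, 20 (66.7%) had a pooled region, 5 (16.7%) one with a q-value under 0.05 and 2 (6.67%) an IDR peak. Over all genes these shares were 25.8%, 2.67% and 1.50%. The IDR peaks were at larp-1, which encodes an RNA-binding protein, with a pooled signal value of 214.3 (rank 167), and at iff-2, an eIF5A gene, with 167.8 (rank 440). At larp-1 both replicates ranked the region near the top (ranks 191 and 245), as they did at iff-2 (ranks 462 and 602). The poly(A)-binding protein genes pab-2 and pab-1 followed with 150.2 and 134.1, and abcf-2, for an ATP-binding cassette protein, had 136.3. At pab-1 the replicates differed, with rank 621 in replicate 1 and 15064 in replicate 2.

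Cytosolic ribosomal protein genes had a pooled region at 46 of 82 (56.1%), a share like that of the members, but an IDR peak at 11 (13.4%). Their strongest pooled summits had a median position of -303 bp from the start, where negative is upstream, and 82.6% were upstream. For mitochondrial ribosomal protein genes the counts were 28 of 70 (40.0%) and 2 (2.86%), and the shares over all genes were 25.8% and 1.50%. No test of these differences between lists was made. By chromosome, pooled regions lay at 13 of 21 members on I, 9 of 14 on II, 4 of 10 on III, 4 of 10 on IV, 4 of 7 on V and the single member on X. Over all genes the shares on these chromosomes ran from 20.8% on V to 32.3% on I.

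Each of the short words named in earlier results on these peaks lay at a minority of the members' summits. The first was ACGCAG, the second was CTGCGC, the third was GAGAGA and the fourth was CACTCG. Each was searched on both strands in the 101 bp centred on the summit, and the reverse complement of the first shares most of its letters with the second. At the 35 member regions ACGCAG occurred in 2 (5.71%), CTGCGC in 3 (8.57%), GAGAGA in 4 (11.4%) and CACTCG in 1 (2.86%). The shares over all 575 IDR peaks were 11.3%, 7.65%, 13.9% and 9.22% in the same order. Over all pooled regions they were 3.94%, 2.52%, 8.78% and 3.14%, and over the 100 bp upstream of all 5′ ends 2.81%, 1.29%, 8.86% and 1.83%. ACGCAG lay at cars-1 and eef-1G, CTGCGC at ears-2, eif-2beta and eif-2D, and CACTCG at eif-3.C. Of the 4 IDR peaks, eif-2Bgamma and eif-2gamma had none of the words. The G+C content averaged 51.5% at the 4 IDR peaks and 40.2% at all member regions, beside 45.6% at all IDR peaks, 41.6% at all pooled regions and 33.2% upstream of all 5′ ends, so the shares compare windows of unequal composition.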

How the data were processed

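Binding of F10E7.11-GFP was measured by ChIP-seq in 2 biological replicates of 1 strain, per the labels. The deposited peak lists give each region a signal value from the authors' peak caller, the −log10 of a q-value and a summit. A control library was used for peak calling by the authors and is not analysed here. For the aligner, the caller, their versions and the IDR cutoff, the sources used here give nothing. The q-values printed were computed back from the deposited −log10 values, and read depth is unknown.

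The ce11 lists were joined to Ensembl release 115 genes of WBcel235, after chromosome lengths were compared, and sequence came from RefSeq's copy of that assembly. For each gene the region of highest signal value with a summit in the window was kept. Lists in ce10 were not used. The window search was tested on simulated data. Counts are given beside all protein-coding genes with no set test. The names follow a rule: members with an IDR peak, the 20 strongest members, the 3 nearest each window edge, the 3 largest rank gaps, and the related genes with an IDR peak or among the 5 strongest; others are named after their values were seen. The members, lists, words and tests were chosen with earlier results of these data known. Alternatives covered the window, the 5′ ends, the lists, the q-value and each replicate alone. Python 3.11.15, numpy 2.4.6, pandas 2.3.3, scipy 1.17.1 and matplotlib 3.10.9 were used.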

Additional observations from a re-analysis of the deposited data

How the results depend on the processing

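The number of members with an IDR peak (4) was 2 in a window from 500 bp upstream to 100 bp downstream, beside 0.986% of all genes, and 1 in the stronger part of the IDR list, split at its middle rank (0.871% of all genes). With the strongest regions of a single replicate it ranged from 1 to 4. The number with a pooled region (35) was 9 with a q-value under 0.05, and 25 to 38 under the other alternatives, beside 2.67% and 16.9% to 32.0% of all genes. The median percentile (77.5) ranged from 66.0 to 77.7 in the lists of a single replicate. Members with a region in both replicates (30) were 17 in the narrower window and 19 where the summits had to lie within 100 bp, beside 9.85% and 11.4% of all genes. Leaving out regions within 250 bp of a tRNA, snoRNA or snRNA gene, an alternative chosen after seeing the data, left 3 members with an IDR peak and 34 with a pooled region, beside 1.27% and 25.1% of all genes. The median signal value was 90.7 in the narrower window too, and the median position was 206 bp upstream when the gene record's own 5′ end was used. In windows of 201 bp, also chosen after seeing the data, ACGCAG lay at 4 of the 35 member regions (7.45% of all pooled regions and 16.7% of IDR peaks). There CTGCGC lay at 4 (4.51% and 11.7%), GAGAGA at 5 (15.8% and 26.8%) and CACTCG at 1 (5.74% and 12.2%). No paired analysis was possible because the samples form 1 group. Without depth or a second condition, a gene with no listed region cannot be told apart from one with weak binding.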
